A study of Mus musculus with 8 samples.

Results

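The genes described are Mup3, Mup4, Mup5, Mup6, Mup20 and Mup21, the 6 major urinary protein genes whose sequence stands apart from the rest of the family. They were chosen by name from the normalized counts of these 8 libraries, and they are 6 of 21 Mup genes and of 24972 genes listed with a value. The counts in both groups were known when they were selected, so their own differences between the groups are given as a description, with no test. The values come from RNA of whole mouse liver in 2 groups of 4 libraries. All mice were C57BL/6J, were injected into a vein with an adeno-associated virus at 10 weeks of age and were 18 weeks old when RNA was taken, 8 weeks later. The ATF3 group received AAV8-ALB-ATF3, a virus named for ATF3, a stress-induced transcription factor, and the Null group received AAV8-ALB-Null, the control virus. ALB was taken as the albumin promoter, which would limit the transgene to hepatocytes, and the sex of the mice is not given in the sources used here. According to the design text, each group had 8 mice. Nothing in the labels ties a library to a mouse, and p-values cover only variation among libraries, which may be technical. The study asked which liver genes ATF3 regulates.

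Major urinary proteins are small secreted lipocalins that fold into a barrel and carry volatile pheromones. Mouse liver makes them in large amounts and passes them through the blood into the urine. Male livers make more than female livers, a difference set by the pulsed male pattern of growth hormone, which acts through its receptor and the transcription factor STAT5B. Mup20 encodes darcin, the urinary pheromone by which females recognise a male. Mup4 and Mup5 are known for expression in nasal, lacrimal and salivary tissues, outside the liver.

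All 22 annotated Mup genes lie in 1 cluster of 2.19 Mb on chromosome 4 in mm10 (GENCODE vM21), and the 6 genes occupy its edges. Mup4 (59956804 to 59960710, minus strand) and Mup6 (59964294 to 60007274, plus strand) are the first and the second gene of the cluster. Mup5 (61831319 to 61835233), Mup20 (62050234 to 62054158), Mup3 (62083476 to 62087342) and Mup21 (62147932 to 62150863), all on the minus strand, are genes 19 to 22. All 6 are annotated as protein coding. Coding sequences of the other 16 annotated Mup genes were 98.2% to 99.8% identical to each other over 120 pairs, with a median of 99.0%. Each of the 6 differed more, with a median identity to those 16 of 82.6% for Mup3, 84.2% for Mup21, 88.7% for Mup4, 89.7% for Mup6, 90.2% for Mup5 and 90.7% for Mup20. Among the 6, the neighbours Mup3 and Mup21 were the most alike pair, at 94.8%, and Mup6 and Mup3 the least alike, at 82.4%. The label "sequence-divergent" and the place at the cluster's edges therefore both held.

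To show this divergence, the 90 coding bases with the most differences that aligned without a gap are printed for each gene, with Mup7 standing for the other Mup genes. Capitals mark bases that differ from Mup7, 28 in Mup21, 27 in Mup3, 16 in Mup5, 14 in Mup20, 13 in Mup4 and 12 in Mup6.
Mup3: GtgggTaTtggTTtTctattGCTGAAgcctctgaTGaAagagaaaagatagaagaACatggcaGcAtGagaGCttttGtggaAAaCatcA
Mup21: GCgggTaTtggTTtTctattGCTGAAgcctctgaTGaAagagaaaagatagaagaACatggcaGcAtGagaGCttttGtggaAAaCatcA
Mup20: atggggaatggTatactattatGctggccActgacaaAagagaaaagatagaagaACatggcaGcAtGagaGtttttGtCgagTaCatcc
Mup5: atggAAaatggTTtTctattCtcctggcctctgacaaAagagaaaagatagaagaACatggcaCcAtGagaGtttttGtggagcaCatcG
Mup4: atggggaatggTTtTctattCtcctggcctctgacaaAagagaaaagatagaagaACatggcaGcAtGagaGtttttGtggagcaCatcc
Mup6: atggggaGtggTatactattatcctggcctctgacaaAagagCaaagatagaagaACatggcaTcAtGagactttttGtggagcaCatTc
Mup7: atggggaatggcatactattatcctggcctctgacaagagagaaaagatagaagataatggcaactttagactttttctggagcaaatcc

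The divergence bears on the values, since reads from near-identical genes can be given to the wrong gene. Between 70.2% (Mup1) and 100% of the 31-base stretches of each other Mup transcript recur in transcripts of another gene. Of the stretches of Mup21, 0.618% recur in one of the other 16 Mup genes, and this share was 3.19% for Mup3, 4.85% for Mup6, 5.72% for Mup4, 10.7% for Mup5 and 11.9% for Mup20. Counting every gene, Mup20 had the highest share of the 6, at 64.5%, and 51.2% of its stretches recur in the pseudogene Mup-ps19. Among the 6, Mup21 shares 28.6% of its stretches with Mup3.

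Promoter windows of 4 of the 6 genes, running from 250 bases before to 50 bases after the annotated start, are printed to compare genes at the 2 ends of the cluster (RefSeq, GRCm38.p6). Capitals mark the match to TATATAA.
Mup3 (chr4:62087268-62087567, minus strand): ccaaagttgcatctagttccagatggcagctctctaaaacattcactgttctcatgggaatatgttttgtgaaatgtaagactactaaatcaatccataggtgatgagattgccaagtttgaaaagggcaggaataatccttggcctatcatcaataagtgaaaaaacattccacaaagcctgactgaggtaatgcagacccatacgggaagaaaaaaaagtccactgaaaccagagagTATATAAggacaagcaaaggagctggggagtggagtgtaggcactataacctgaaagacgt
Mup21 (chr4:62150792-62151091, minus strand): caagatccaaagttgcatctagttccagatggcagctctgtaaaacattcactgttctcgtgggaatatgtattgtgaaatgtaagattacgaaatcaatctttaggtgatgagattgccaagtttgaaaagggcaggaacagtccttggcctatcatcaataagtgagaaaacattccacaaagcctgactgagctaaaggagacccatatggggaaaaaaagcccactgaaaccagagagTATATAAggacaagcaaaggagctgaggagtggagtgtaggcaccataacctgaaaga
Mup4 (chr4:59960618-59960917, minus strand): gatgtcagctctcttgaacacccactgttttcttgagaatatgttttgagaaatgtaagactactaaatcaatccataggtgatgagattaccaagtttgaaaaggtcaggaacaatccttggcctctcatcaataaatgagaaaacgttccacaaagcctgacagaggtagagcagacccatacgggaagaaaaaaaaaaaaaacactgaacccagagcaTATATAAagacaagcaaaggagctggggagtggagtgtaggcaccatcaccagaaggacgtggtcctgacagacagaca
Mup6 (chr4:60003231-60003530, plus strand): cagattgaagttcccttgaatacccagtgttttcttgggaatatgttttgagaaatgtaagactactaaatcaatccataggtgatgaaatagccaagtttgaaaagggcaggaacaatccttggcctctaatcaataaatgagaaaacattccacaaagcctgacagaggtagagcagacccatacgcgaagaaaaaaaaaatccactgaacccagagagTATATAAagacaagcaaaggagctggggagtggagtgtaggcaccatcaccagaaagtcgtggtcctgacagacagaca
Over all aligned positions, with gaps counted as differences, identity was 90.2% for Mup3 and Mup21 and 91.7% for Mup4 and Mup6. Between the ends of the cluster it was 71.9% to 78.4%. Gap positions numbered 12 and 4 in these pairs and 38 to 54 between the ends. The windows are placed by the annotated start, whose distance from TATATAA differs between the ends. How much of the lower identity comes from this placement was not tested. Each of the 4 windows held 1 match to TATATAA, whose first base lay at -29 in Mup4 and Mup6, at -11 in Mup3 and at -8 in Mup21 relative to the annotated start, against 3.22% of 32544 windows of the same length that held any. The other Mup genes shared it, with a match in 9 of 10 windows. None of the 4 held TTCNNNGAA, the STAT motif (8.33% of all windows), TGACGTCA, the full cyclic AMP response element (1.8%), or TTGCNNAA, a C/EBP motif (10.8%), on either strand. The motifs do not contain one another, and a match or its absence describes these letters only.

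The deposited normalized counts, in units of 1000000, summed to 23.9 to 25.9 per ATF3 library and to 26.2 to 28.4 per Null library. Atf3 itself held 5611, 5886, 7053 and 6722 normalized counts in ATF3 1 to 4 and 24.2, 22.5, 24.5 and 20.3 in Null 1 to 4, so the libraries followed their labels, and transcripts of the virus and of the mouse gene cannot be told apart. Across all 13301 genes tested, 11.4% rose and 9.82% fell (limma, Benjamini-Hochberg adjusted p under 0.05). Of 12 hepatocyte markers tested, 3 rose and 3 fell. The summed level of the list was 3612410 to 4239230 normalized counts in ATF3 libraries and 2820400 to 4121320 in Null libraries. Of 21 markers of Kupffer, endothelial, stellate, bile duct, immune and acinar gland cells that were tested, 0 rose and 1 fell. The 23 listed summed to 27014 to 30233 normalized counts in ATF3 libraries and 27937 to 35315 in Null libraries, and 0 of them were at 0 in all libraries. Amy1, listed for acinar gland cells, held a mean of 3521 of these counts in ATF3 and 4255 in Null. Which liver cells gave its signal was not tested, nor was the part of the marker genes in the results below. Fewer cells of a type and less RNA per cell cannot be told apart in whole liver.

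The plot of normalized counts by library gives all 6 genes. The libraries of the ATF3 group were below those of the Null group for each of them. Across all genes tested, 12.6% were lower in ATF3 livers without overlap of the groups. Since the choice of the 6 used this contrast, nothing is read from the count. In the TPM as deposited the groups overlapped for Mup3 and Mup5, whose Null 1 values of 2552 and 1.43 lay below the highest ATF3 values of 12224 and 1.59.

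**Figure D1:**
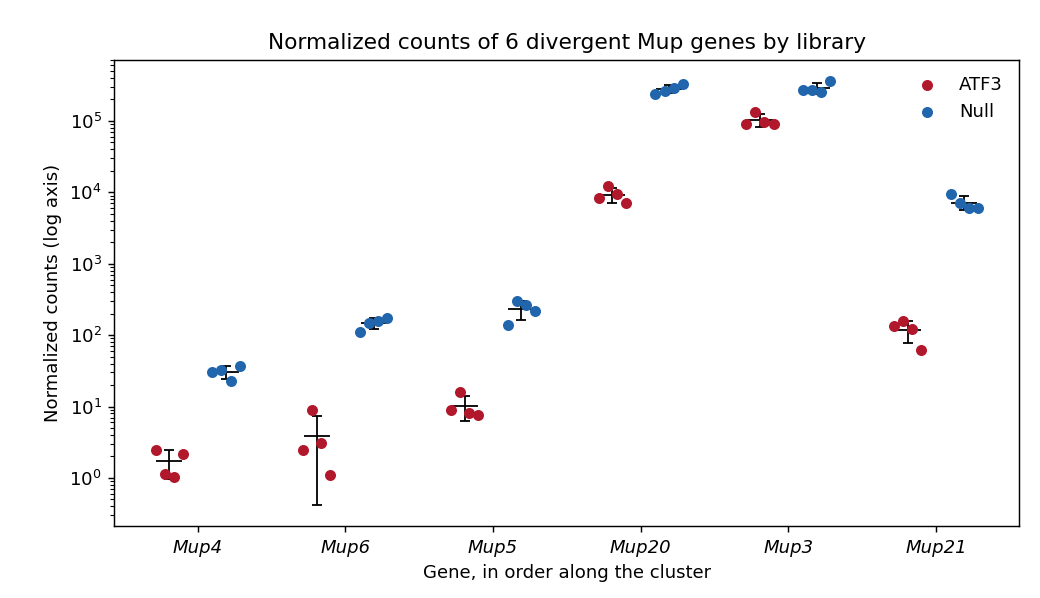
Normalized counts (log axis) of the 6 genes in order along the cluster, with each point 1 library, ATF3 left of Null, and bars for the group mean ± SD (n = 4 each). Mup3 has the smallest gap between the groups, with ATF3 libraries at 89358 to 132803 and Null libraries at 250469 to 361178.

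Mup3 kept the most signal in ATF3 livers. It had 89358, 132803, 95891 and 91487 normalized counts in ATF3 1 to 4, against 271949, 272683, 250469 and 361178 in Null 1 to 4. ATF3 2 was highest in its group and Null 4 in its own, and the highest ATF3 library lay below the lowest Null library. The group means were 102385 ± 20461 in ATF3 and 289069.6 ± 49164 in Null (SD, n = 4 each), a level 2.82-fold lower in ATF3 and a log2 change of -1.50 (SE 0.18). By TPM, the per-length measure, Mup3 ranked between 8 and 13 of all genes in ATF3 libraries and between 5 and 9 in Null libraries.

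Mup20, the darcin gene, lies next to Mup3 and had a similar level per length in Null livers, but a lower one in ATF3 livers. Its normalized counts were 8435, 12422, 9328 and 6999 in ATF3 1 to 4, against 239786, 261795, 288764 and 325079 in Null 1 to 4. The groups were far apart, again with ATF3 2 highest among ATF3 libraries and Null 4 highest among Null libraries. The level was 29.997-fold lower in ATF3, a log2 change of -4.93 (SE 0.18). Its rank by TPM was 90 to 149 in ATF3 libraries and 6 to 7 in Null libraries. The ratio of Mup3 to Mup20 TPM was 9.94, 10.03, 9.65 and 12.3 in ATF3 1 to 4, against 1.06, 0.977, 0.814 and 1.04 in Null 1 to 4.

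Mup21, the last gene of the cluster and the closest relative of Mup3, had the log2 change farthest from 0 of the 6. It had 133, 157, 121 and 61.05 normalized counts in ATF3 1 to 4, against 9449, 7028, 6112 and 6079 in Null 1 to 4. ATF3 4 was lowest, and Null 1 was highest while Null 4, the highest Null library for Mup3 and Mup20, was lowest. The level was 60.8-fold lower in ATF3, a log2 change of -5.97 (SE 0.27), and the TPM rank was 3536 to 6586 in ATF3 libraries and 93 to 146 in Null libraries. Mup3 and Mup21, the most alike in coding sequence, had the smallest and the largest log2 change of the 6. The ratio of Mup3 to Mup21 TPM was 467, 585, 552 and 1047 in ATF3 1 to 4, against 20.01, 26.98, 28.5 and 41.3 in Null 1 to 4. Their promoter windows, printed above, were 90.2% identical.

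Mup4, Mup5 and Mup6 were at low levels in liver. Mup5 had 8.81, 15.8, 8.14 and 7.53 normalized counts in ATF3 1 to 4, against 138, 299.8, 265 and 219 in Null 1 to 4. Mup6 had 2.46, 9.05, 3.11 and 1.10 in ATF3 1 to 4, against 112, 148, 159 and 175 in Null 1 to 4. Mup4 had 2.47, 1.14, 1.03 and 2.17 in ATF3 1 to 4, against 30.4, 32.4, 22.5 and 37.5 in Null 1 to 4. The groups stayed apart in all 3 genes, and ATF3 2 was highest for Mup5 and Mup6 but not for Mup4. Mean levels were 22.9-fold (Mup5), 37.8-fold (Mup6) and 18.0-fold (Mup4) lower in ATF3. The fold of Mup6 turned on ATF3 2, without which it was 66.8. The log2 changes were -4.38 (SE 0.29), -5.15 (SE 0.42) and -3.57 (SE 0.34) in the same order. These depend on the 1 added before taking logs, since the most frequent low value of an ATF3 library was itself 0.493 to 1.13 normalized counts. Mup4 and Mup6 lay under 10 in every ATF3 library, so their Null libraries alone carried them past the filter of 10 in at least 4 libraries. Mup5 lay under 10 in 3 of 4 ATF3 libraries, all but ATF3 2, so it too needed the Null group to pass.

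For each of the low genes, the signal per 1000000 of the other 15 Mup genes gives its value beside that of its abundant relatives. Mup6 stood at 95.3 ± 50.6 in ATF3 and 93.7 ± 10.8 in Null (SD, n = 4 each). The ATF3 mean was carried by ATF3 2, at 169, and was 70.7 without it, from levels of 1.10 to 9.05 normalized counts. Mup5 stood at 294 ± 95.9 in ATF3 and 143 ± 27.3 in Null, and Mup4 at 59.0 ± 46.5 in ATF3 and 20.0 ± 5.99 in Null (SD, n = 4 each). For Mup4 the ATF3 mean was 37.5 without ATF3 4, and ATF3 2, at 21.3, lay inside the Null range of 11.8 to 25.5. How many reads of these genes were assigned from the other Mup genes was not tested.

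The 6 genes held 71.2%, 73.1%, 74.7% and 84.9% of all Mup signal in ATF3 1 to 4, against 30.4%, 24.6%, 22.3% and 30.001% in Null 1 to 4, in normalized counts. The means were 76.0% ± 6.11 in ATF3 and 26.8% ± 4.01 in Null (SD, n = 4 each), with no overlap of the groups. Mup3 alone made up 69.6% ± 6.23 of Mup signal in ATF3 and 13.5% ± 2.71 in Null. Mup20 went the other way, at 6.25% ± 0.256 in ATF3 and 12.9% ± 1.26 in Null, of a total that includes Mup3. So did Mup21, at 0.0784% ± 0.0187 in ATF3 and 0.346% ± 0.140 in Null. Mup4, Mup5 and Mup6 together held 0.0103% ± 0.00194 in ATF3 and 0.0188% ± 0.00227 in Null. Without Mup3 on either side, the other 5 held 21.6% ± 4.89 of the remaining Mup signal in ATF3 (17.8% to 28.7%) and 15.4% ± 2.01 in Null (13.4% to 17.3%). The largest of these, 28.7%, was ATF3 4. Mup20 and Mup21 were also set against the Mup genes outside the 6, on the scale used above for the low genes. There Mup20 was higher in ATF3 libraries, at 212911 to 398680, than in Null libraries, at 151621 to 201117. For Mup21 the groups overlapped, at 2942 to 3477 in ATF3 libraries and 3209 to 7906 in Null libraries.

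**Figure D2:**
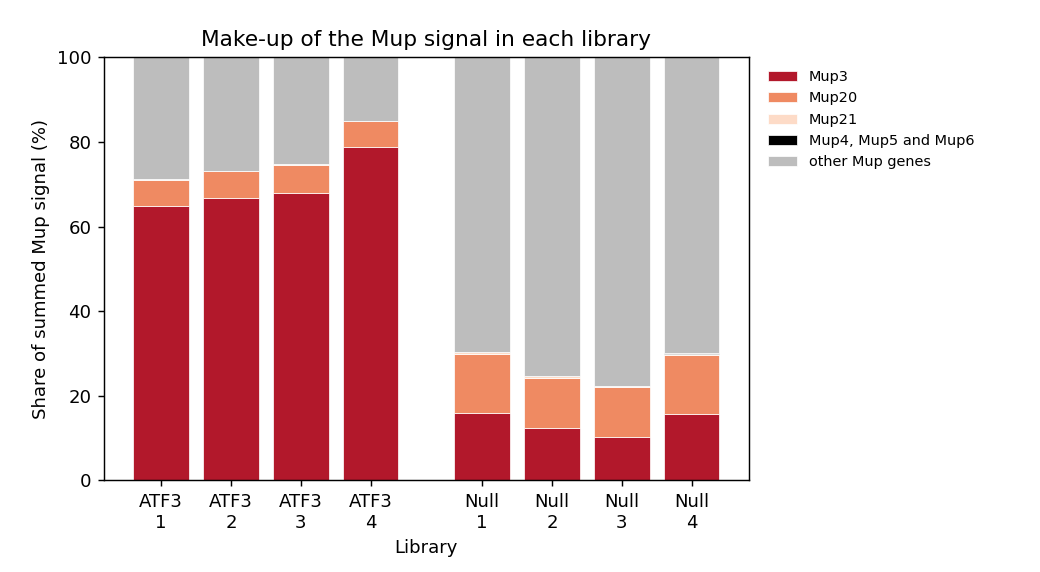
Stacked bars of the share of summed Mup normalized counts (percent) in each library, ATF3 on the left and Null on the right. Mup3 fills 65.0% to 78.8% of the bar in ATF3 libraries and 10.2% to 15.8% in Null libraries; Mup21 and the sum of Mup4, Mup5 and Mup6 are too thin to see.

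Per length, the order of the 6 was led by Mup3 in ATF3 livers and shared by Mup3 and Mup20 in Null livers. In ATF3 libraries, Mup3 held 69.8% ± 5.96 of Mup TPM, Mup20 6.68% ± 0.281 and Mup21 0.113% ± 0.0276. In Null libraries these shares were 13.8% ± 2.76 for Mup3, 14.1% ± 1.36 for Mup20, which did not differ beyond their spread, and 0.507% ± 0.207 for Mup21. The 3 low genes followed, with 0.0073% (Mup5), 0.0055% (Mup6) and 0.00143% (Mup4) in ATF3 and 0.0118% (Mup5), 0.0161% (Mup6) and 0.00161% (Mup4) in Null. In ATF3 livers, Mup5 and Mup6 differed by less than the SD of Mup6, 0.00357. Shares are used here because TPM levels themselves cannot be set side by side between libraries: the share of TPM listed for Mir6236 was 0.308% in Null 4 and 89.4% in Null 1.

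All Mup genes together made up 0.591% ± 0.127 of normalized counts in ATF3 and 7.95% ± 1.28 in Null (SD, n = 4 each), and the 6 genes alone 0.445% ± 0.0778 in ATF3 and 2.10% ± 0.236 in Null. Of the other 15 Mup genes, 10 reached the filter of 10 in all 4 ATF3 libraries as well as in Null, and these 10 fell, where 9.82% of all genes fell. Their log2 changes ran from -7.07 (Mup15) to -4.73 (Mup10) with a median of -6.41, against 0.00681 over all genes tested. Of the 31-base stretches of their transcripts, 70.2% (Mup1) to 100% (Mup15) recur in another gene. Their single values are therefore uncertain, and the 10 are not separate observations. Mup8, Mup9, Mup13 and Mup16 needed the Null group to pass the filter, and their log2 changes of -5.83, -7.70, -7.04 and -7.33 are given as values. Mup16 was listed at 0 in every ATF3 library, so its fitted size depends on the added 1. Mup10 had 18797 ± 6827 normalized counts in ATF3 and 482814 ± 95762 in Null (SD, n = 4 each), within the spread of Mup7 in Null, at 478283 ± 55103, and Mup17 was listed at 0 in every library. Of the 6, Mup3 had a log2 change nearer 0 than any of the 10, whereas Mup20 and Mup21 lay inside their range. Mup4, Mup5 and Mup6 needed the Null group to pass the filter and are not ranked beside the 10. Their log2 changes depend on the added value. They stood at -3.86, -4.45 and -5.36 with 0.5 added and at -1.79, -3.55 and -3.52 with 10 added. With rescaled TPM, Mup6 stood at -3.85.

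**Figure D3:**
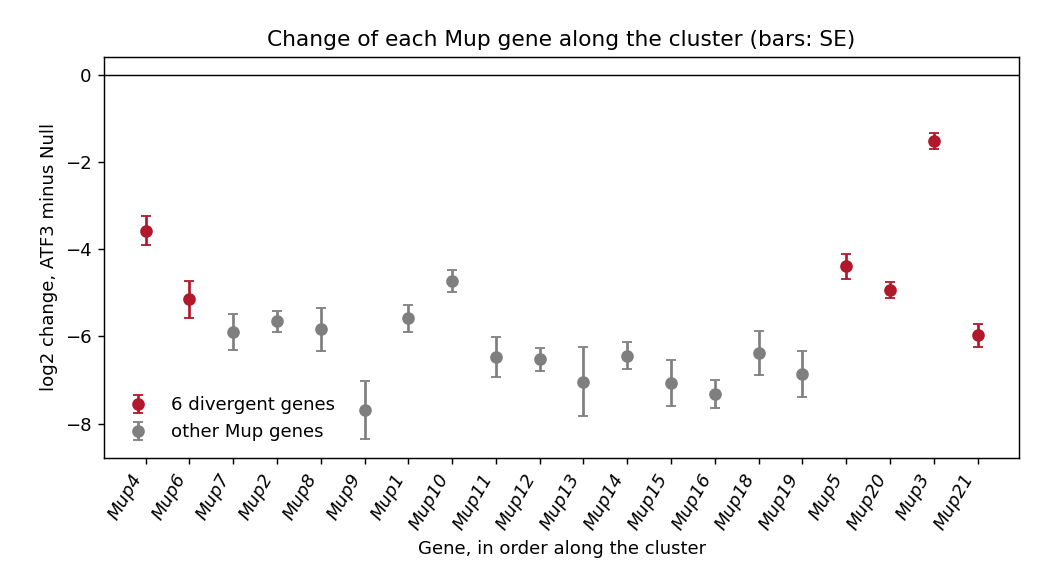
Log2 change, ATF3 minus Null, with its SE for each Mup gene in order along the cluster. The 6 divergent genes (red) stand at both ends, with Mup3 at -1.50 beside Mup21 at -5.97, while the 14 others (grey) lie between -7.70 and -4.73.

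**Figure D4:**
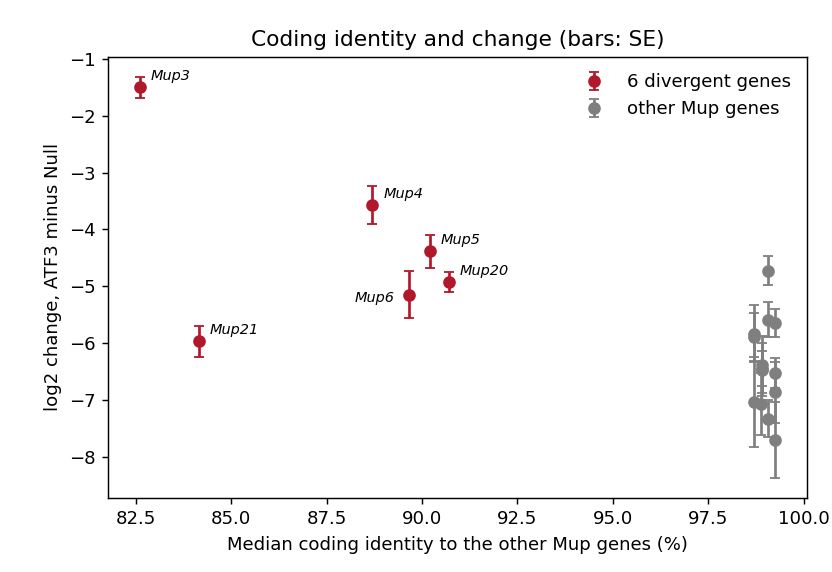
Log2 change, ATF3 minus Null (vertical axis, with SE), against the median coding identity to the other Mup genes in percent (horizontal axis). Mup3 and Mup21, the lowest in identity at 82.6% and 84.2%, have the smallest and the largest change of the 6.

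In the ATF3 group, ATF3 2 and ATF3 4 each lay on the same side of the group mean for most of the 6 genes. ATF3 2 was the highest ATF3 library for Mup3, Mup5, Mup6, Mup20 and Mup21, by 0.39 to 1.27 above the group mean on the log2 scale. ATF3 4 was the lowest for Mup5, Mup6, Mup20 and Mup21, by -0.32 to -0.99, but stood at -0.14 for Mup3. The other 15 Mup genes together had 17556 normalized counts in ATF3 4, against 35666 to 53514 in the other ATF3 libraries. In the Null group the genes were less alike. Null 4 was highest for Mup3, Mup4, Mup6 and Mup20 and lowest for Mup21, and Null 1 ran from -0.68 for Mup5 to 0.42 for Mup21. The highest library exceeded the lowest 1.49-fold (Mup3) to 8.21-fold (Mup6) in the ATF3 group and 1.36-fold (Mup20) to 2.17-fold (Mup5) in the Null group.

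**Figure D5:**
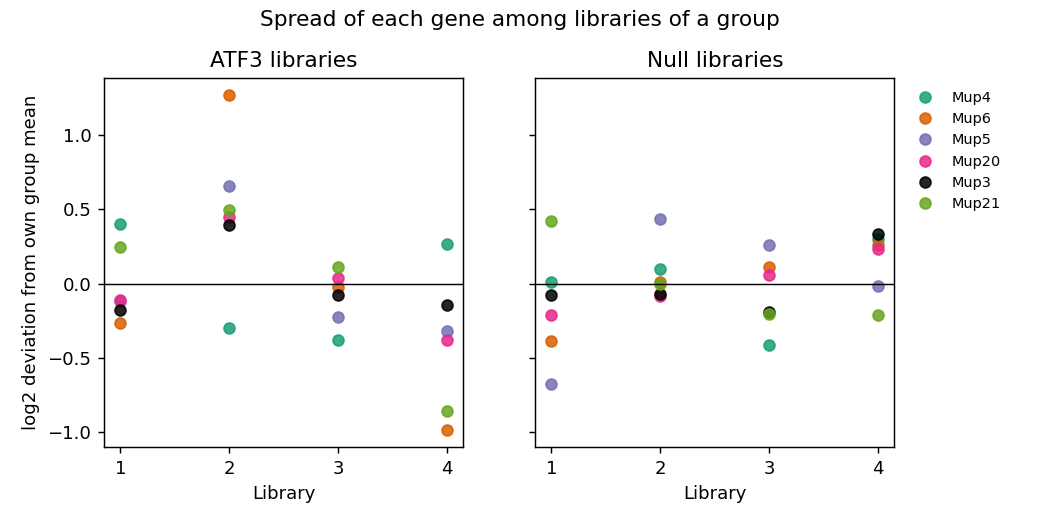
Deviation of each library from its own group's mean on the log2 scale, with 1 point per gene and library. In the left panel ATF3 2 lies above the mean for 5 genes and ATF3 4 below it for 5, and the widest points belong to Mup6 at 1.27 and -0.99.

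Genes outside the family that tracked the summed 6 were sought among 10280 genes. Of a mean sum of 111815 normalized counts in ATF3, Mup3 held 102385. Of 575502 in Null, Mup3 held 289070 and Mup20 278856. The r values therefore say little about Mup4, Mup5, Mup6 and Mup21. The highest Pearson r of log2 values over the 8 libraries belonged to Serpina1d, an alpha-1-antitrypsin gene (0.997), Mx2, an interferon-induced GTPase (0.996), Crot, a peroxisomal acyltransferase (0.996), Cpb2, the plasma carboxypeptidase that slows clot breakdown (0.996), and Wfdc21 (0.996). These r include the gap between the groups. Within groups, r was 0.906, 0.906, 0.874, 0.857 and 0.834 in the same order. All 8 libraries share scaling, Serpina1d has near-identical copies, and r is given as a description.

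Of 22 tested genes within 1000000 bases of the cluster, 3 rose and 4 fell, where 11.4% of all genes rose and 9.82% fell. Their median log2 change was 0.06. Snx30, a sorting nexin gene 52067 bases before Mup4, fell (-0.84, SE 0.12, adjusted p = 0.000845 by limma). Zfp37, the nearest gene after Mup21, at 38677 bases and named for its place, stood at -0.24 (SE 0.24, adjusted p = 0.523 by limma). Higher in ATF3 were Ambp, itself a lipocalin precursor (log2 change 0.84), Susd1 (0.72) and Alad, an enzyme of haem synthesis (0.62). The lowest log2 change of a tested neighbour was -1.15, nearer 0 than the -1.50 of Mup3.

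Of 19 factors that act on Mup genes or on sex-biased liver genes, 1 rose and 4 fell, where 11.4% of all genes rose and 9.82% fell. Ppargc1a, a coactivator gene, rose by 0.77 (adjusted p = 0.000634 by limma). Foxa3 fell by 0.65 (adjusted p = 0.00185) and Cebpa, a hepatocyte factor, by 0.60 (adjusted p = 0.00918), both by limma. Nr3c1, the glucocorticoid receptor gene, fell by 0.41 (adjusted p = 0.00339 by limma). The sign of these 3 turned with the TPM as deposited, where none was called and the median of all genes moved to 0.75. With TPM rescaled by median of ratios, Foxa3, Cebpa and Nr3c1 stood at -0.63, -0.60 and -0.39, and all 3 were called. Of 17 genes of growth hormone receptor signalling, 0 rose and 4 fell, beside the same shares of all genes. These 4 were Igfbp1 (-2.18), Stat5a (-0.63), Igfals (-0.50) and Stat3 (-0.30). The number that fell was 2 with quantile normalization and 2 with no filter. Stat5a, Igfals and Stat3 also turned sign with the TPM as deposited. The calls of Igfals and Stat3 were lost in 7 and 6 of the 8 fits that leave out 1 library. Chosen after their values were seen, Ghr, the growth hormone receptor gene, stood at 0.26 (adjusted p = 0.156 by limma) and Stat5b at -0.26 (adjusted p = 0.0862 by limma), and neither passed.

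Of 26 other male-biased liver genes tested, 24 reached the filter in all libraries of their lower group. Of these 24, 17 fell and 2 rose, where 9.82% of all genes fell and 11.4% rose, with a median log2 change of -0.87. Serpina1e had 6519 ± 2146 normalized counts in ATF3 and 373372 ± 46562 in Null (SD, n = 4 each), a log2 change of -5.91 (SE 0.25, adjusted p = 2.43e-07 by limma), close to that of Mup21. C8a, a complement gene, stood at -3.32, Gstp1, a glutathione transferase gene, at -2.38 and Nudt7, a peroxisomal hydrolase gene, at -2.30, and all 3 passed the test. Serpina1e and Gstp1 have near-identical copies, so their single values are uncertain. This list was written with earlier results of these libraries known, and its direction is no independent evidence.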

How the data were processed

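Libraries were stranded total RNA from liver, per the labels. Bowtie2 and mm10 are named in the submitters' processing notes, while the sources used here do not give the quantifier, the annotation or how multiply mapping reads were shared. One table the authors deposited holds a signal per gene, called normalized counts here after its name, which gives DESeq counts; its values are not whole. At most 26.6% of values under 30 were whole multiples of a library's most frequent low value (within 0.01 of a whole number), so whole reads were not recovered and no count model was used. The other deposited table holds TPM, in which 26 gene names had turned into dates and were left out.

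The 13301 genes that reached 10 in 4 or more libraries were fitted with limma 3.58.1 in R 4.3.3 on log2(normalized count + 1), with a group term and an intensity trend. Tests were two-sided, adjusted by Benjamini-Hochberg over all genes, with a threshold of 0.05. The fit was tested on simulated data. The 6 genes and all lists were chosen with earlier results of these data known. Named genes are the 6, Atf3, up to 4 genes per list by lowest p, the extremes of the other Mup genes, and the 5 genes with the highest r among those with a mean of at least 100 in either group. Identity came from global alignment of principal coding sequences of GENCODE vM21. The authors' annotation may be another. Python 3.11.15, pandas 2.3.3 and matplotlib 3.10.9 were used. Alternatives covered the added value, filter, scaling, table, weights and leaving out each library. Folds, proportions and means without 1 library, and counts over genes that reach 10 in all libraries of their lower group, were added after seeing the data. Precision is limited by 4 libraries a group, and low values by depth.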

Additional observations from a re-analysis of the deposited data

Results flagged for a closer look

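In 104 groups of 4 libraries examined for a library far from the other 3, 7 values stood apart, where chance flags about 1 in 20. ATF3 2 was far above the other ATF3 libraries for Mup3 (132803 normalized counts), Mup5 (15.8), Serpina1d (19253) and Wfdc21 (295). ATF3 1 was far below the others for Ambp (71036). Null 3 was far above the other Null libraries for Orm2 (2462) and Orm3 (88.2). Without ATF3 2, the log2 change of Mup3 was -1.63 and that of Mup5 -4.60.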

How the results depend on the processing

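No paired analysis was possible because the library numbers of the groups pair no libraries. Direction held for the 6 genes in every alternative that gave a value, though with TPM as deposited Mup3 stood at -0.49 with an SE of 0.85 and the groups overlapped for Mup3 and Mup5. With TPM as deposited Mup4 did not reach the filter and gave none. Mup4 and Mup6 also gave none when a Null library was left out, since only the 4 Null libraries reach 10, so their ranges cover ATF3 libraries alone. For the same reason Mup13 and Mup16 left the test there, which gives the 12 lower other Mup genes. Leaving out 1 library at a time, log2 changes ranged from -1.63 to -1.39 for Mup3, -3.70 to -3.44 for Mup4, -4.61 to -4.24 for Mup5, -5.57 to -4.82 for Mup6, -5.08 to -4.80 for Mup20 and -6.13 to -5.68 for Mup21. The share of Mup signal held by the 6 ranged from 73.0% to 77.6% in ATF3 and from 25.6% to 28.3% in Null, and with TPM it was 76.6% in ATF3 and 28.4% in Null. Leaving out Mup pseudogenes gave no value, since none is among the 21 Mup genes used.

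With 10 added, Mup4, Mup5 and Mup6 stood at -1.79, -3.55 and -3.52. With TPM rescaled by median of ratios these were -1.43, -3.26 and -3.85, and Sox9 did not reach the filter, so that 0 of 17 markers of other cell types fell. Leaving out 1 library also ended the call of Sox9 in 6 of 8 fits, of Ass1 without Null 1 or ATF3 3, and of Cps1 without ATF3 4. With quantile normalization Mup3 stood at -0.95 and Mup4 at -4.15, 2 growth hormone genes and 1 hepatocyte marker fell, and 7 plasma protein genes rose and 4 fell. Without a filter 2 growth hormone genes and 1 hepatocyte marker fell.

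TPM as deposited moved the median of all genes to 0.75. Mup3, Mup5, Mup6, Mup20 and Mup21 stood at -0.49, -2.68, -3.27, -3.92 and -4.87, and 219 genes rose and 47 fell. It called 0 genes in either direction among neighbours, Mup regulators, growth hormone genes, plasma proteins, hepatocyte markers and other cell type markers, 2 lower and 0 higher male-biased genes, and 0 lower lipocalins. Signs turned for Foxa3 (0.33), Nr3c1 (0.54), Cebpa (0.40), Stat5a (0.18), Stat3 (0.65), Igfals (0.47), Cps1 (0.42), Amy1 (0.72), Des (0.23) and Cd79a (0.071). The cause was not tested.

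Library weights called 2271 higher and 2130 lower genes. They gave 5 higher neighbours, 2 higher and 8 lower Mup regulators, 2 higher and 7 lower growth hormone genes, 4 lower lipocalins and 5 lower hepatocyte markers.

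Leaving out 1 library gave 1003 to 1960 higher and 846 to 1774 lower genes (both lowest without ATF3 3, highest without Null 4). Called members ranged from 12 to 14 lower other Mup genes, 3 to 4 higher and 3 to 4 lower neighbours, 1 higher and 3 to 6 lower Mup regulators, 0 to 1 higher and 2 to 5 lower growth hormone genes, 1 to 2 higher and 17 to 19 lower male-biased genes, 3 higher and 1 to 2 lower lipocalins, 4 to 5 higher and 5 to 6 lower plasma proteins, 1 to 3 higher and 1 to 5 lower hepatocyte markers, and 0 to 1 higher and 0 to 1 lower markers of other cell types. Counts of called members in the alternatives cover every tested gene of a list. That takes in Mup8, Mup9, Mup13, Mup16, Nat8, Sstr2, Obp2a, Socs1 and Zfp618, which fell short of 10 in part of their lower group. Nothing is read from these counts, and in the main fit 11.4% of all genes rose and 9.82% fell. Of the 5 genes most like the summed 6, 5 were named with rescaled TPM.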

Other observations

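Of 22 other lipocalin genes, 9 passed the filter, 8 of them in all libraries of their lower group. Of these 8, 3 rose and 1 fell (limma, adjusted p under 0.05), where 11.4% of all genes rose and 9.82% fell. Orm3, of the orosomucoid genes that encode acute phase lipocalins, had 698 ± 104 normalized counts in ATF3 and 40.9 ± 31.9 in Null, and Orm2 had 14156 ± 2035 in ATF3 and 863 ± 1074 in Null (SD, n = 4 each). Null 3 carried both Null means, which without it were 25.2 for Orm3 and 330 for Orm2, with a log2 change of Orm2 of 5.55 against 4.79 with all libraries. Apom, which encodes a lipocalin of HDL, fell by 1.06 (adjusted p = 0.000418 by limma). Obp2a, an odorant-binding protein gene, passed the filter only through the Null group and is given as a value. It had 2.18 ± 0.988 in ATF3 and 37.6 ± 17.8 in Null (SD, n = 4 each). The orosomucoid genes are near-identical copies and single values are uncertain.

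Of 20 other abundant plasma protein genes, 4 rose and 7 fell, where 11.4% of all genes rose and 9.82% fell, with a median log2 change of -0.33. With quantile normalization 7 rose and 4 fell. The alpha-1-antitrypsin genes Serpina1c, Serpina1a, Serpina1d and Serpina1b fell, with log2 changes of -2.92, -2.89, -2.75 and -2.44. Like Serpina1e they are near-identical copies, so their single values are uncertain. Ttr, the transthyretin gene, had 237971 ± 38346 in ATF3 and 101580.0 ± 30918 in Null (SD, n = 4 each). Its log2 change was 1.26 (adjusted p = 0.00226 by limma). Of the hepatocyte markers, Ass1 rose by 0.69 and Cps1 fell by 0.58 (adjusted p = 0.0152 by limma). Cps1 was not called with quantile normalization (-0.027, adjusted p = 0.897) or with no filter (adjusted p = 0.0634). Of the markers of other cell types, Sox9 fell by 1.89 (adjusted p = 0.0243 by limma), a call lost in 6 of the 8 fits that leave out 1 library.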
